A study of Mus musculus with 6 samples.

Results

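The kinesin superfamily of the mouse was followed in C2C12 cells, an immortalized line of skeletal muscle myoblasts that fuse into myotubes when serum is withdrawn. Members were the protein-coding genes whose symbol is Kif or Kifc followed by a digit, and this rule used no measured value. It found 43 of the 56404 genes in the count files, of which 21910 were protein-coding. By their known roles they fell into 13 kinesins of the mitotic spindle and midzone, 17 of cargo transport, 6 of the cilium, 6 of microtubule dynamics or signalling, and Kif1bp, which carries the symbol but encodes a kinesin-binding protein and not a motor. The study sequenced polyadenylated RNA from 2 libraries each of myotubes, reserve cells and myoblasts. Myoblasts (Day 0) were taken near confluence, before differentiation. Myotubes and reserve cells (both Day 7) came from the same kind of culture in low-serum medium (DMEM with 2% horse serum), where mild trypsin separated the fused cells from the mononucleated cells that remain. The day is that of the series text, and the culture methods of the study give a shorter time. All groups are 1 cell line, the labels name no transgene or drug, and no sort after the trypsin step is named. The series describes the replicates as biological, and with 2 libraries a group the p-values rest on the spread between these libraries.

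Kinesins are motors that use ATP to walk along microtubules or to take them apart at their ends. The mitotic members push the spindle poles apart, move chromosomes and bundle the midzone during cytokinesis, and they are made mainly late in the cell cycle. The transport members carry organelles, vesicles and RNA, and in skeletal muscle the kinesin-1 motor Kif5b is known for moving nuclei and mitochondria along the growing myotube. Many late cell cycle genes share a promoter layout in which CCAAT boxes stand upstream of a cell cycle homology region near the start site. The CCAAT boxes are bound by NF-Y and the homology region by the MuvB complex, which represses as DREAM in resting cells and activates together with B-Myb and FoxM1 in dividing cells.

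The promoters were read for these letters because the mitotic members moved together in the data below. RefSeq windows (GRCm38.p6) of 300 bases, from 250 before to 50 after the start, were matched by symbol for 33 members, of which 12 were mitotic, and the letters at the end of 29 of these windows were found in a transcript of the same gene. The cell cycle homology region was searched as TTTGAA with its reverse TTCAAA and as the palindrome TTCGAA, and the CCAAT box as CCAAT with its reverse ATTGG, so that both strands were covered. The homology letters occurred in 11 of 12 mitotic windows (91.7%) and in 3 of 21 windows of other members (14.3%), against 19.4% of 27025 promoters of the table. A CCAAT box occurred in 8 of 12 mitotic windows (66.7%) and in 8 of 21 others (38.1%), against 37.9% of all promoters. Both occurred together in 8 mitotic windows and in 3 others, and in 7.70% of all promoters. Kif18a was the mitotic member with neither. Among the mitotic members with homology letters, the windows of Kif14, Kif2c and Kif4 lay wholly inside the gene model used for counting, past its 5′ end. In Kif14 the homology letters began 228 bases and the CCAAT box 92 bases before the start, the reverse of the order described above. A match in a window is a description of its letters and not a measured site.

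The windows of Kif11, Kif18b, Kif22 and Kif23 are shown because they hold both motifs, and Kif26b because it holds the same letters and its level was highest in reserve cells. Each is printed 5′ to 3′ on the strand of the gene, with the CCAAT box and the homology letters in capitals. They lie at chr19:37376132-37376431 (+), chr11:102925075-102925374 (−), chr7:127042371-127042670 (−), chr9:61946750-61947049 (−) and chr1:178528875-178529174 (+).
Kif11: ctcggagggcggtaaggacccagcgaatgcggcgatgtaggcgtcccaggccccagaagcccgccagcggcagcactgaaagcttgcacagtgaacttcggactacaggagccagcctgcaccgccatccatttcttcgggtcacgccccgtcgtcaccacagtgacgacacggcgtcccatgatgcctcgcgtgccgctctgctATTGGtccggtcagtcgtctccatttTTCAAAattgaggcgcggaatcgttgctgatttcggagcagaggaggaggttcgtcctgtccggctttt
Kif18b: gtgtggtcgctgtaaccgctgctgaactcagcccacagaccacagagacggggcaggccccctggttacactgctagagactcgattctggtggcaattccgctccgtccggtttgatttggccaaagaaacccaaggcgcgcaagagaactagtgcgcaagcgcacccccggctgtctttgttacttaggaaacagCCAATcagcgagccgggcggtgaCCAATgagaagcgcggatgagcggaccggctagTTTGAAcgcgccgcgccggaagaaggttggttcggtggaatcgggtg
Kif22: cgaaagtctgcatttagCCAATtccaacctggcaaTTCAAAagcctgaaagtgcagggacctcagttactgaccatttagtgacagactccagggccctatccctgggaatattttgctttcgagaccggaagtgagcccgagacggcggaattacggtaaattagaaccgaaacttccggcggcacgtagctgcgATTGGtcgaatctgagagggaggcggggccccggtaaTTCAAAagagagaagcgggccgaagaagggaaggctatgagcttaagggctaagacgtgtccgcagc
Kif23: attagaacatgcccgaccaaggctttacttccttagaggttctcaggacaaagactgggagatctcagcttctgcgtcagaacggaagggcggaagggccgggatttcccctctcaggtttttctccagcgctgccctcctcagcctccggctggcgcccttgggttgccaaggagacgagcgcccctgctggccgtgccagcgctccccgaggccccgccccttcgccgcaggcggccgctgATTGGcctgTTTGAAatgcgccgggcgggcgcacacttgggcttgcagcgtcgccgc
Kif26b: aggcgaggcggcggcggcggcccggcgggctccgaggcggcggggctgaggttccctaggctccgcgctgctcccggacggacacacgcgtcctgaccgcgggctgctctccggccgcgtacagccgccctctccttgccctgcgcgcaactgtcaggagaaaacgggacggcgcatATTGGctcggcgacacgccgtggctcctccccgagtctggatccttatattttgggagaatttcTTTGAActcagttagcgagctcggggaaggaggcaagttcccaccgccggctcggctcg
In Kif11 the CCAAT box began 45 bases and the homology region 19 bases before the start. In Kif22 the pair closest to the start began 54 and 17 bases before it, and a further pair 233 and 215 bases before it. In Kif26b the distances were 73 and 9 bases. In Kif18b and Kif23 the homology letters lay just inside the transcribed part.

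Library totals ranged from 15658875 to 20055078 estimated counts, and the 43 members took 0.241% to 0.278% of them. Levels are given as CPM, the estimated count over the library size after TMM scaling, in counts per 1000000. A set of 5 myotube markers (Myog, Acta1, Myh3, Ckm, Tnnt3) summed to 19400 and 19402 CPM in myotubes, 5698 and 5783 in reserve cells, and 219 and 206 in myoblasts. The reserve cell libraries thus held more RNA of these muscle genes than the myoblast libraries. A set of 5 reserve or satellite cell markers (Pax7, Notch3, Cd34, Sdc4, Spry1) summed to 375 and 366 CPM in myotubes, 733 and 732 in reserve cells, and 620 and 614 in myoblasts. In reserve cells over myoblasts 2 of the 5 (Cd34, Spry1) were higher and 0 lower by the test given below. The background there was 24.3% of all tested genes higher and 21.8% lower. Pax7, the satellite cell factor, averaged 63.4 CPM in reserve cells and 70.6 CPM in myoblasts (edgeR adjusted p 0.24). Summed markers of macrophages (2.02 to 3.92 CPM), endothelium (0 to 1.21 CPM) and adipocytes (0 to 0.323 CPM) were near 0 in all libraries. In bulk RNA, fewer cells of a type and less RNA of a gene per cell cannot be told apart, and this holds for each level below.

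Kinesin transcripts differed between the Day 7 populations and Day 0 in both directions. A gene was called where edgeR's quasi-likelihood test gave a Benjamini-Hochberg adjusted p under 0.05 over 15467 genes. Of the 43 members, 39 had enough counts to be tested. Between myotubes and myoblasts 14 of 39 were higher and 21 lower, against a background of 32.6% of all tested genes higher and 32.7% lower (65.3% in either direction). Between reserve cells and myoblasts 9 were higher and 19 lower (background 24.3% and 21.8%, 46.1% in either direction), and between myotubes and reserve cells 10 were higher and 20 lower (background 27.2% and 28.4%, 55.6% in either direction). The median log2 fold change of the tested members was −0.60, −0.38 and −0.50 in these comparisons, against 0.00, 0.01 and −0.01 over all genes tested. Both comparisons with myoblasts share the myoblast libraries. Scaling by library totals in place of TMM moved the median of all genes to −0.27 between myotubes and myoblasts, and members whose call or direction changed with it are named where they are described.

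The 13 mitotic members fell in every comparison, and each by more than 2-fold. The median log2 fold change was −3.63 in myotubes over myoblasts (from −4.56 to −3.03), −1.45 in reserve cells over myoblasts (from −2.07 to −1.18) and −2.13 in myotubes over reserve cells (from −2.76 to −1.77). In these fits myotubes kept 4.22% to 12.3% of the myoblast level, with a median of 8.06%, and reserve cells kept 23.8% to 44.1%, with a median of 36.5%. No library of 1 group overlapped with a library of another for any of the 13. The share of all tested genes without such overlap was not counted. The mitotic calls held under all 14 alternative settings that tested genes, while 10 of these 39 calls were lost when each gene was read from its most counted transcript, among them those of Kif20a in each comparison.

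**Figure D1:**
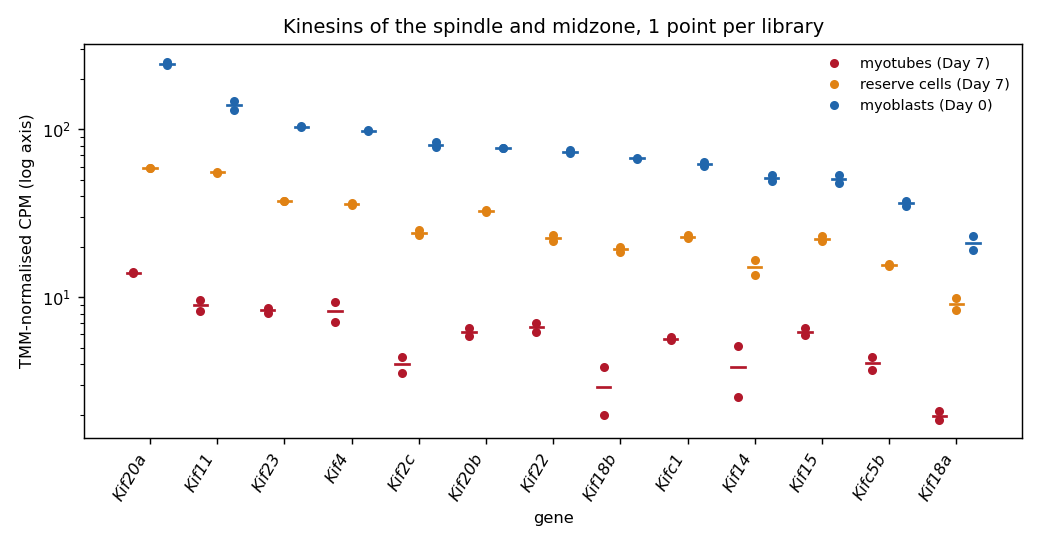
TMM-normalised CPM on a log axis for the 13 mitotic kinesins, ordered by myoblast mean. Points are the 2 libraries of myotubes, reserve cells and myoblasts, and bars are their means. For every gene the myotube points lie lowest, the reserve cell points between, and the myoblast points highest.

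Among the motors that build the spindle, Kif11 (kinesin-5, which slides antiparallel microtubules to separate the poles) had 8.32 and 9.66 CPM in myotubes, 56.1 and 55.2 in reserve cells, and 130 and 148 in myoblasts. Its log2 fold change was −3.95 (SE 0.11) in myotubes over myoblasts and −1.32 (SE 0.09) in reserve cells over myoblasts, with edgeR adjusted p of 1.2e-08 and 8.3e-06. Kif15, the kinesin-12 that works beside Kif11, had the smallest fall of the 13 in both comparisons with myoblasts. It was at 6.54 and 5.93 CPM in myotubes, 23.1 and 21.7 in reserve cells, and 53.3 and 48.2 in myoblasts, and its log2 fold change was −3.03 (SE 0.12) in myotubes over myoblasts. Kifc1, a minus-end directed kinesin-14 that focuses the poles, had 5.76 and 5.53 CPM in myotubes, 23.4 and 22.5 in reserve cells, and 64.4 and 60.7 in myoblasts. Kifc5b is a near-identical copy of Kifc1, so the division of reads between them is uncertain. Kifc5b had 4.41 and 3.66 CPM in myotubes, 15.7 and 15.4 in reserve cells, and 37.5 and 35.0 in myoblasts. With both copies summed the log2 fold change was −3.35 in myotubes over myoblasts and −1.36 in reserve cells over myoblasts.

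The midzone motors of the kinesin-6 family included Kif20a, the member with the highest mean level per length in myoblasts. Kif20a, which brings the chromosomal passenger complex to the midzone, had 13.9 and 14.1 CPM in myotubes, 58.8 and 58.6 in reserve cells, and 253 and 241 in myoblasts. Its log2 fold change was −4.14 (SE 0.07) in myotubes over myoblasts and −2.07 (SE 0.06) in reserve cells over myoblasts, the largest fall of the 13 between reserve cells and myoblasts. Kif20a shares 1271 exonic bases with Cdc23 on the other strand, and no source states whether counting used the strand. Kif23, the motor of centralspindlin, had 8.68 and 8.03 CPM in myotubes, 37.3 and 37.5 in reserve cells, and 104 and 103 in myoblasts. Kif20b had 6.54 and 5.87 CPM in myotubes, 33.3 and 32.2 in reserve cells, and 77.8 and 78.0 in myoblasts. Kif14, which recruits citron kinase for abscission, was the mitotic member whose myotube libraries lay furthest apart by ratio, at 2.56 and 5.12 CPM, against 16.6 and 13.5 CPM in reserve cells and 53.3 and 49.6 CPM in myoblasts.

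The chromosome-associated motors fell as well. Kif4 (kinesin-4, the mouse counterpart of human KIF4A) had 9.32 and 7.15 CPM in myotubes, 36.5 and 35.3 in reserve cells, and 97.7 and 99.0 in myoblasts. Kif22 (kinesin-10, which pushes chromosome arms away from the poles) had 6.19 and 7.04 CPM in myotubes, 21.6 and 23.6 in reserve cells, and 75.1 and 72.4 in myoblasts. Their log2 fold changes in myotubes over myoblasts were −3.59 (SE 0.11) and −3.47 (SE 0.10). Kif4 shares 832 exonic bases with Pdzd11 on the other strand.

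Among motors that act on microtubule ends, Kif18b and Kif2c had the largest falls of the 13 in myotubes over myoblasts. Kif18b, a kinesin-8 that acts on astral microtubules, had 3.84 and 1.98 CPM in myotubes, 19.97 and 18.6 in reserve cells, and 67.0 and 67.9 in myoblasts, with a log2 fold change of −4.56 (SE 0.21) in myotubes over myoblasts. Kif2c, the kinesin-13 depolymerase of the centromere, had 3.56 and 4.42 CPM in myotubes, 25.1 and 23.4 in reserve cells, and 78.1 and 84.0 in myoblasts, with a log2 fold change of −4.33 (SE 0.12). Kif18a, which damps chromosome movement at the metaphase plate, had 1.85 and 2.09 CPM in myotubes, 9.89 and 8.34 in reserve cells, and 19.3 and 23.1 in myoblasts, and a log2 fold change of −3.42 (SE 0.21).

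Partners of the mitotic motors moved the same way. Of 17 listed partners, 17 fell in myotubes over myoblasts, 16 in reserve cells over myoblasts and 17 in myotubes over reserve cells. The background of genes called lower was 32.7%, 21.8% and 28.4% in these comparisons. The median log2 fold changes of the partners were −3.65, −1.45 and −2.17. Prc1, which bundles midzone microtubules for Kif4, averaged 28.7 CPM in myotubes, against 98.3 CPM in reserve cells and 230 CPM in myoblasts. Cenpe, a kinesin of the kinetochore whose symbol lies outside the rule, averaged 9.92 CPM in myotubes, against 46.7 CPM in reserve cells and 178 CPM in myoblasts. The exception was Numa1, which binds spindle poles and is also a nuclear protein of resting cells. It averaged 252 CPM in reserve cells and 272 CPM in myoblasts, with an edgeR adjusted p of 0.18. A set of 5 proliferation markers (Mki67, Top2a, Ccnb1, Cdk1, Aurkb) summed to 111 and 117 CPM in myotubes, 586 and 602 in reserve cells, and 1515 and 1551 in myoblasts, and each of the 5 fell in each comparison. Aurkb is on both lists. The part that the share of dividing cells has in these falls was not tested.

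The 13 genes of MuvB, DREAM and their late cell cycle partners did not move as 1 block. In myotubes over myoblasts 4 rose and 7 fell, against a background of 32.6% and 32.7%, and in reserve cells over myoblasts again 4 rose and 7 fell (background 24.3% and 21.8%). The 4 that rose in myotubes were Lin37 (log2 fold change 1.16), E2f4 (0.62), Rbbp4 (0.47) and Tfdp2 (0.32), and in reserve cells they were Rbl2 (0.59), Lin37 (0.56), Tfdp2 (0.31) and E2f4 (0.28). Foxm1, the late cell cycle activator, averaged 9.83 CPM in myotubes, against 54.9 CPM in reserve cells and 142 CPM in myoblasts. Mybl2, which encodes B-Myb, averaged 3.26 CPM in myotubes, against 16.4 CPM in reserve cells and 31.8 CPM in myoblasts. Rbl1, which encodes the pocket protein p107, fell by 2.17 on the log2 scale in myotubes over myoblasts, and Tfdp1, a partner of E2F factors, fell by 0.51.

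**Figure D2:**
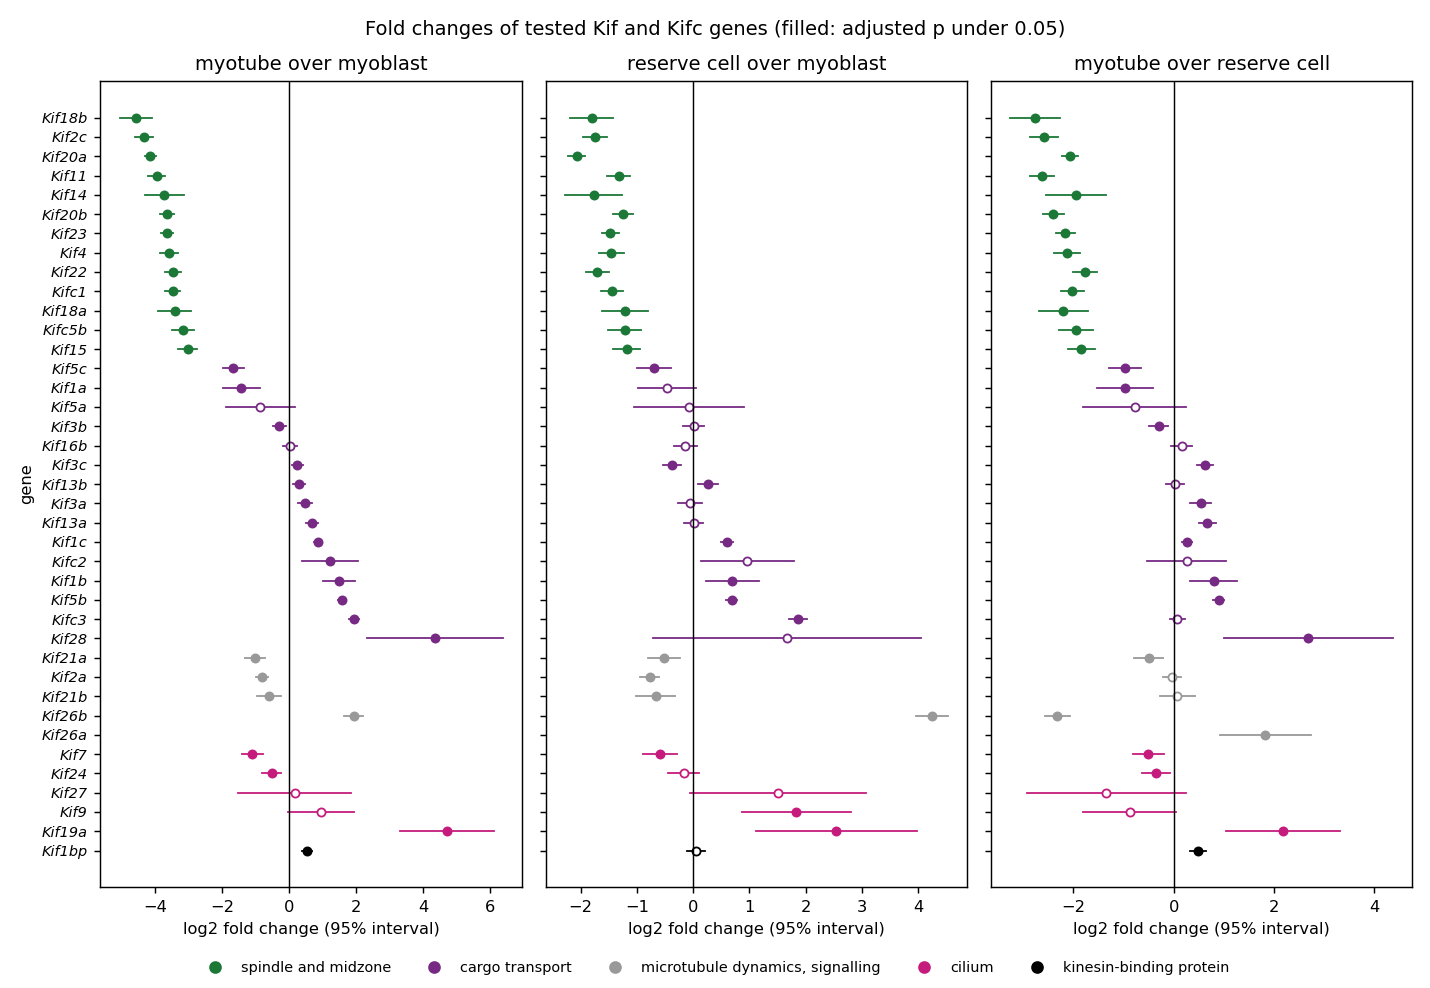
Log2 fold changes with 95% intervals for the 39 tested members in myotubes over myoblasts, reserve cells over myoblasts and myotubes over reserve cells, grouped by role. Filled points have an edgeR adjusted p under 0.05. All 13 mitotic members lie left of 0 in each panel, while the transport members lie on both sides. Kif26a is left out of the panels with myoblasts, where it had 0 counts.

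Transport kinesins moved in both directions. Of 15 tested, 10 rose and 3 fell in myotubes over myoblasts (background 32.6% and 32.7%), 5 rose and 2 fell in reserve cells over myoblasts (background 24.3% and 21.8%), and 7 rose and 3 fell in myotubes over reserve cells (background 27.2% and 28.4%). The medians were 0.48, 0.01 and 0.26 on the log2 scale, and that in reserve cells over myoblasts was also the median of all genes tested.

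Kif5b, the ubiquitous kinesin-1 heavy chain, had the highest level per length of any member in myotubes and reserve cells. It had 952 and 1024 CPM in myotubes, 543 and 522 in reserve cells, and 328 and 335 in myoblasts. The log2 fold change was 1.58 (SE 0.05) in myotubes over myoblasts, 0.68 (SE 0.04) in reserve cells over myoblasts and 0.89 (SE 0.04) in myotubes over reserve cells, with edgeR adjusted p of 1.6e-08, 5.7e-06 and 8.3e-07. The neuronal heavy chains went the other way or were scarce. Kif5c had 8.96 and 11.3 CPM in myotubes, 19.5 and 20.5 in reserve cells, and 32.1 and 32.4 in myoblasts, and its log2 fold change was −1.67 (SE 0.14) in myotubes over myoblasts and −0.69 (SE 0.13) in reserve cells over myoblasts. Kif5a lay between 0.872 and 2.17 CPM in all libraries and was called in no comparison.

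Kif1c and Kif1b are kinesin-3 motors of the general cargo kind, and Kif1a is their neuronal relative. Kif1c had 489 and 516 CPM in myotubes, 424 and 413 in reserve cells, and 285 and 268 in myoblasts, with a log2 fold change of 0.86 (SE 0.05) in myotubes over myoblasts and 0.60 (SE 0.05) in reserve cells over myoblasts. In myotubes over reserve cells it was 0.26 (SE 0.05), and this call was lost when library totals replaced TMM. Kif1b, a carrier of mitochondria and synaptic vesicle precursors, had 363 and 555 CPM in myotubes, 308 and 221 in reserve cells, and 154 and 173 in myoblasts. The replicates of both Day 7 groups lay apart, and the transcript Kif1b-203 held 0 and 3576 estimated counts in myotubes, 1968 and 0 in reserve cells, and 0 and 0 in myoblasts. The log2 fold change of Kif1b in myotubes over myoblasts was 1.49 (SE 0.21), and 1.12 without that transcript. In reserve cells over myoblasts it was 0.70 with it and 0.40 without it, with edgeR adjusted p of 0.023 and 0.0013, and the call with it was lost with DESeq2 and without reserve cell replicate 1 or either myoblast replicate (adjusted p from 0.065 to 0.17). Kif1a had 4.05 and 2.97 CPM in myotubes, 6.86 and 6.84 in reserve cells, and 10.1 and 8.81 in myoblasts, and fell by 1.43 on the log2 scale in myotubes over myoblasts. A set of 6 neuronal markers (Tubb3, Map2, Rbfox3, Snap25, Syn1, Nefl) had, like Kif5c and Kif1a, lower levels in both Day 7 groups than in myoblasts. Its summed level was 31.1 and 30.2 CPM in myotubes, 41.6 and 44.9 in reserve cells, and 323 and 320 in myoblasts. Of the 6, 2 were at 0 in every library. In reserve cells over myoblasts the tested markers had a median log2 fold change of −1.90, while Kif5c and Kif1a kept 62.0% and 72.5% of the myoblast level. Kif5c was called lower in that comparison, and Kif1a was not called. In myotubes over reserve cells 1 of 4 tested markers was called lower (background 28.4%), with a median of −0.07. Kif5c (−0.98) and Kif1a (−0.97) were both called lower there. The part of these markers in the falls was not tested.

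Kifc3, a minus-end directed motor known from the apical membrane and cell junctions of epithelia, rose in both Day 7 populations by a similar amount. It had 142 and 145 CPM in myotubes, 138 and 135 in reserve cells, and 39.1 and 36.1 in myoblasts. The log2 fold change was 1.94 (SE 0.07) in myotubes over myoblasts and 1.86 (SE 0.07) in reserve cells over myoblasts. Between myotubes and reserve cells it was 0.07, with a 95% interval from −0.07 to 0.22 and an edgeR adjusted p of 0.36. Kifc2, the other transport motor of this family, had 4.12 and 4.13 CPM in myotubes, 3.73 and 3.16 in reserve cells, and 2.22 and 1.34 in myoblasts. It was called higher in myotubes over myoblasts (log2 fold change 1.22), a call that was lost without myoblast replicate 2 (edgeR adjusted p 0.094), and it overlaps with Cyhr1, which had up to 2303 counts against at most 74 for Kifc2.

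The kinesin-2 subunits did not move together. Kif3a pairs with Kif3b or Kif3c, and the Kif3a and Kif3b motor drives intraflagellar transport as well as cargo. Kif3a had 63.3 and 68.4 CPM in myotubes, 49.4 and 41.5 in reserve cells, and 46.9 and 47.6 in myoblasts. Its log2 fold change was 0.48 (SE 0.09) in myotubes over myoblasts, a call lost with library totals, and −0.05 (95% interval −0.27 to 0.16) in reserve cells over myoblasts. Kif3b had 58.2 and 59.3 CPM in myotubes, 69.9 and 74.6 in reserve cells, and 67.7 and 75.6 in myoblasts, and its log2 fold change was −0.29 (SE 0.08) in myotubes over myoblasts, where edgeR's adjusted p was 0.013 with all libraries and 0.0897 without myoblast replicate 2. Kif3c had 93.3 and 96.0 CPM in myotubes, 60.3 and 62.1 in reserve cells, and 81.9 and 77.5 in myoblasts. By CPM it was thus highest in myotubes and lowest in reserve cells with no overlap between groups. Per length (TPM, explained below) Kif3c was highest in myoblasts. It had 29.3 and 30.1 TPM in myotubes, 23.9 and 27.0 in reserve cells, and 38.6 and 32.2 in myoblasts. Its log2 fold change was 0.25 (SE 0.07) in myotubes over myoblasts, −0.38 (SE 0.07) in reserve cells over myoblasts and 0.63 (SE 0.07) in myotubes over reserve cells. The first of these was −0.029 with library totals (edgeR adjusted p 0.73) and was not called without myotube replicate 2 or myoblast replicate 2 (adjusted p 0.054 and 0.093). Kif3c shares 2617 exonic bases with 1110002L01Rik on the other strand. Kifap3, the accessory subunit of the motor, averaged 144 CPM in myotubes, against 94.9 CPM in reserve cells and 99.0 CPM in myoblasts.

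Kif13a, which moves recycling endosomes, was higher in myotubes than in either other group. It had 108 and 112 CPM in myotubes, 67.9 and 71.0 in reserve cells, and 71.6 and 65.9 in myoblasts. The log2 fold change was 0.68 (SE 0.07) in myotubes over myoblasts, 0.67 (SE 0.07) in myotubes over reserve cells, and 0.01 (95% interval −0.15 to 0.18) in reserve cells over myoblasts. Kif13b had 59.9 and 64.3 CPM in myotubes, 59.9 and 62.2 in reserve cells, and 48.9 and 52.5 in myoblasts. Its log2 fold changes over myoblasts were 0.29 in myotubes and 0.27 in reserve cells, and both calls were lost with library totals and without myoblast replicate 1. The call in myotubes was also lost without myotube replicate 2, and that in reserve cells with DESeq2 and without either reserve cell replicate.

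The transport members Kif28, Kif17 and Kif12 had few or no counts. Kif28 had 18 and 19 counts in myotubes, 2 and 5 counts in reserve cells, and 1 and 1 counts in myoblasts, a ratio of 23.0 in myotubes over myoblasts with a 95% counting interval from 5.93 to 197. It shares 155 exonic bases on the same strand with Ahctf1, which had up to 3050 counts. Kif17 had 7 and 4 counts in myotubes, 2 and 0 in reserve cells, and 0 and 0 in myoblasts, too few to test, and Kif12 had 0 counts in every library. Kif1bp, the kinesin-binding protein, had 90.5 and 91.6 CPM in myotubes, 65.8 and 63.8 in reserve cells, and 64.1 and 61.3 in myoblasts, with a log2 fold change of 0.54 (SE 0.07) in myotubes over myoblasts and 0.05 (95% interval −0.11 to 0.21) in reserve cells over myoblasts.

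**Figure D3:**
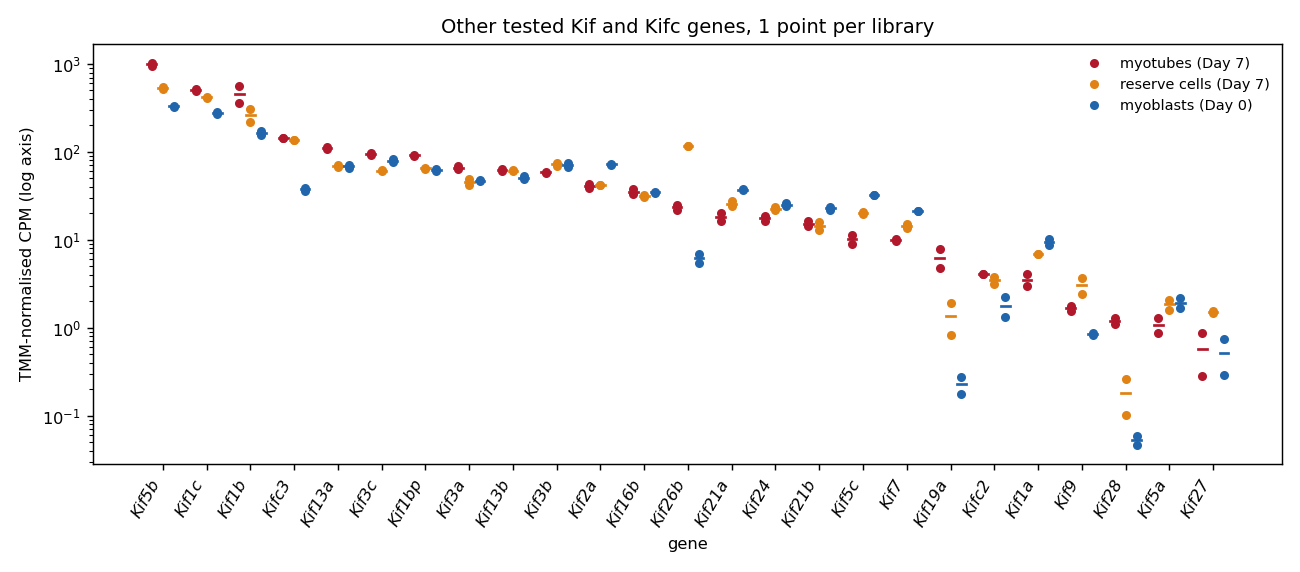
TMM-normalised CPM on a log axis for 25 tested members outside the mitotic group, ordered by myotube mean. Points are the 2 libraries of myotubes, reserve cells and myoblasts, and bars are their means. Kif5b spans 328 to 1024 CPM at the top, Kifc3 is separated from myoblasts in both Day 7 groups, and Kif26b is highest in reserve cells. Kif26a, with 0 counts in myoblasts, is not drawn.

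Of 19 tested partners of kinesin-1, 14 rose and 3 fell in myotubes over myoblasts (background 32.6% and 32.7%), 12 rose and 1 fell in reserve cells over myoblasts (background 24.3% and 21.8%), and 10 rose and 2 fell in myotubes over reserve cells (background 27.2% and 28.4%). Klc1, a kinesin light chain, averaged 478 CPM in myotubes, against 193 CPM in reserve cells and 162 CPM in myoblasts, and Map7d1, which recruits kinesin-1 to microtubules, averaged 795 CPM in myotubes, against 440 CPM in reserve cells and 289 CPM in myoblasts. The nesprins that link nuclei to the cytoskeleton split. Syne1 averaged 186 CPM in myotubes, against 94.5 CPM in reserve cells and 65.9 CPM in myoblasts, while Syne2 averaged 17.0 CPM in myotubes, against 54.6 CPM in reserve cells and 130 CPM in myoblasts. Of 23 genes of cytoplasmic dynein and dynactin, the motor that walks the other way, 14 rose and 4 fell in myotubes over myoblasts (background 32.6% and 32.7%), and 6 rose and 5 fell in reserve cells over myoblasts, near the background of 24.3% and 21.8%. The adaptor Bicd2 averaged 986 CPM in myotubes, against 630 CPM in reserve cells and 196 CPM in myoblasts.

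Kif26b and Kif26a, kinesin-11 proteins that bind microtubules without ATPase activity and act in signalling, were higher in both Day 7 groups than in myoblasts. Kif26b had 24.9 and 21.7 CPM in myotubes, 117 and 115 in reserve cells, and 6.88 and 5.39 in myoblasts. Its log2 fold change was 4.25 (SE 0.12) in reserve cells over myoblasts, 1.93 (SE 0.13) in myotubes over myoblasts and −2.32 (SE 0.11) in myotubes over reserve cells, with edgeR adjusted p of 4.3e-08, 2.1e-06 and 5.6e-07. Kif26a had 140 and 107 counts in myotubes, 52 and 37 counts in reserve cells, and 0 and 0 counts in myoblasts. Set against a floor of 3 counts over both myoblast libraries it was at least 102-fold higher in myotubes and at least 29.4-fold higher in reserve cells. The 2 paralogs thus had opposite orders in the Day 7 groups, since Kif26a was 1.83 (SE 0.38) higher on the log2 scale in myotubes over reserve cells.

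The other 3 tested members placed in the group of microtubule dynamics or signalling were lower in both Day 7 groups than in myoblasts. Kif2a, a kinesin-13 depolymerase, had 39.0 and 43.2 CPM in myotubes, 42.5 and 41.8 in reserve cells, and 71.5 and 72.4 in myoblasts. Its log2 fold changes over myoblasts were −0.81 (SE 0.08) in myotubes and −0.77 (SE 0.07) in reserve cells, and between myotubes and reserve cells it was −0.03 (95% interval −0.21 to 0.14), which became a call with library totals. Kif2a shares 1229 exonic bases with Dimt1 on the other strand. Kif21a and Kif21b limit microtubule growth. Kif21a had 16.4 and 20.1 CPM in myotubes, 24.0 and 27.8 in reserve cells, and 37.6 and 36.5 in myoblasts, with log2 fold changes over myoblasts of −1.02 (SE 0.13) in myotubes and −0.52 (SE 0.12) in reserve cells. Kif21b had 16.1 and 14.3 CPM in myotubes, 12.9 and 16.1 in reserve cells, and 23.9 and 22.1 in myoblasts, with log2 fold changes of −0.60 (SE 0.15) in myotubes and −0.66 (SE 0.15) in reserve cells. The calls of both in reserve cells over myoblasts were lost without reserve cell replicate 1 (edgeR adjusted p 0.074 for Kif21a and 0.052 for Kif21b), and that of Kif21a also without myoblast replicate 1 (0.057). Kif2b had 0 counts in every library.

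Ciliary members were scarce and mixed. Kif7, the Hedgehog regulator at the cilium tip, had 9.74 and 10.3 CPM in myotubes, 13.5 and 15.0 in reserve cells, and 21.4 and 21.3 in myoblasts, with a log2 fold change of −1.09 (SE 0.14) in myotubes over myoblasts. Kif24, which keeps cilia from assembling, had 16.4 and 18.6 CPM in myotubes, 21.6 and 23.3 in reserve cells, and 24.0 and 26.3 in myoblasts, and changed by −0.52 (SE 0.12) in myotubes over myoblasts. Its call in myotubes over reserve cells (−0.36, edgeR adjusted p 0.037) was lost with DESeq2 and in each of 5 fits that left out 1 library, with adjusted p from 0.051 to 0.16. Kif19a, a depolymerase that sets cilium length, had 7.75 and 4.71 CPM in myotubes, 1.92 and 0.829 in reserve cells, and 0.175 and 0.277 in myoblasts. It was 4.72 (SE 0.60) higher on the log2 scale in myotubes over myoblasts, and 2.54 (SE 0.62) higher in reserve cells over myoblasts, a call lost without reserve cell replicate 1 or myoblast replicate 1 (edgeR adjusted p 0.065 and 0.057). Kif9, a motor of motile cilia, rose by 1.83 (SE 0.42) in reserve cells over myoblasts, a call lost without reserve cell replicate 2 (edgeR adjusted p 0.065). In myotubes over reserve cells its log2 fold change of −0.88 missed the threshold (edgeR adjusted p 0.099) and passed it narrowly with library totals (−1.08) and with limma. Kif27 was called in no comparison, and Kif6, with 0 and 8 counts in myotubes, 0 and 0 in reserve cells, and 2 and 18 in myoblasts, was not tested. The summed level of 5 motile cilia markers stayed between 2.38 and 5.85 CPM in all libraries, with 4 of the 5 under 1 CPM throughout, and their part in these values was not tested. Of 23 intraflagellar transport genes 4 rose and 9 fell in myotubes over myoblasts (background 32.6% and 32.7%), and 2 rose and 4 fell in reserve cells over myoblasts (background 24.3% and 21.8%).

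Levels of different genes were compared per length, as estimated counts over transcript length scaled to the same sum in each library (TPM). Kif5b averaged 313 TPM in myotubes, against 215 TPM in reserve cells and 141 TPM in myoblasts, while Kif20a averaged 7.89 TPM in myotubes, against 45.3 TPM in reserve cells and 182 TPM in myoblasts. Kif5b, Kif1c and Kif1b led in myotubes, Kif5b, Kif1c and Kifc3 in reserve cells, and Kif20a, Kif5b and Kif1c in myoblasts. As a share of all TPM of the family, mitotic members held 4.95% and 4.45% in myotubes, 22.3% and 22.5% in reserve cells, and 54.1% and 53.0% in myoblasts. Transport members held 82.8% and 83.9% in myotubes, 65.5% and 65.1% in reserve cells, and 35.8% and 36.5% in myoblasts.

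**Figure D4:**
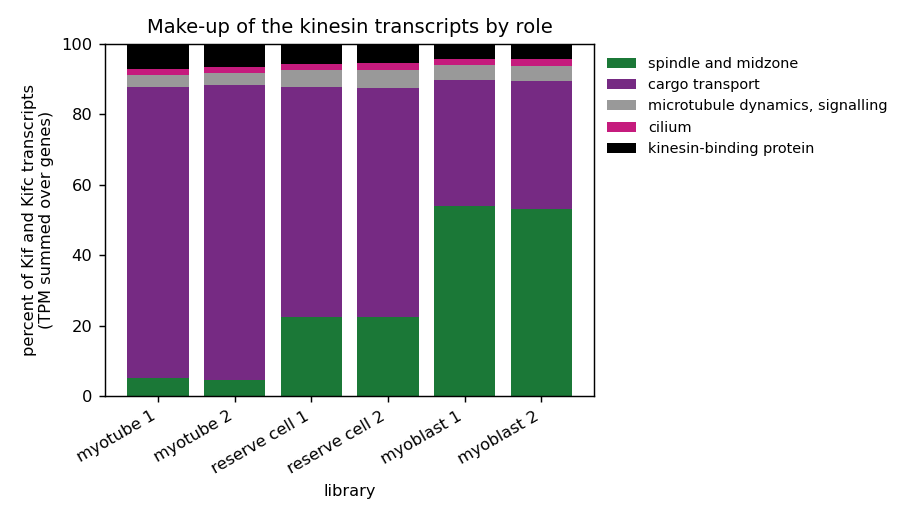
Percent of summed TPM of the 43 members held by each role in each library. The mitotic share is 4.95% and 4.45% in the myotube libraries, 22.3% and 22.5% in the reserve cell libraries, and 54.1% and 53.0% in the myoblast libraries, and transport members take the larger part at Day 7.

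The transcript make-up of the members was compared as well, and its few calls depended on single libraries. Transcripts were tested against the rest of their gene with diffSpliceDGE of edgeR, and 3 of 74 member transcripts were called in myotubes over myoblasts (background 1.71% of 28516). In reserve cells over myoblasts and in myotubes over reserve cells 0 were called (background 0.807% and 0.852%), with 8 and 9 transcripts at an unadjusted p under 0.05. The share of all transcripts under that unadjusted p is not given, so these counts cannot be set against a background. Estimated transcript counts are less certain than gene sums, and the number called was 0 without myotube replicate 2 or either myoblast replicate, 1 without myotube replicate 1, 2 without reserve cell replicate 2 and 4 without reserve cell replicate 1. None of the 3 calls held in all 6 of these fits.

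Exons are shown for the called transcripts of Kif16b and Kif2a and for Kif3a-202, which was not called, and none is shown for Kif20b. They are from the GENCODE M21 transcripts (GRCm38), 5′ to 3′ on the strand of the gene. The exon is in capitals, with 20 bases of the transcript on each side in lower case. Each is in the coding sequence and a multiple of 3 bases long. The lower-case letters after the Kif3a exon begin with a separate exon of 9 bases. The Kif16b exon of 33 bases lies at chr2:142715062-142715094 (−), the Kif2a exon of 114 bases at chr13:106969704-106969817 (−) and the Kif3a exon of 72 bases at chr11:53588689-53588760 (+).
Kif16b exon: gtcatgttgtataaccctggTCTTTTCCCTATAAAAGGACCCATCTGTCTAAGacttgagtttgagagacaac
Kif2a exon: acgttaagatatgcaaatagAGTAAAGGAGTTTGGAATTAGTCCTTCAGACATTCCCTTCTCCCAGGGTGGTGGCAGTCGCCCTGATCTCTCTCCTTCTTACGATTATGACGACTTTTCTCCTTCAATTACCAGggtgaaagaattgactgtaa
Kif3a exon: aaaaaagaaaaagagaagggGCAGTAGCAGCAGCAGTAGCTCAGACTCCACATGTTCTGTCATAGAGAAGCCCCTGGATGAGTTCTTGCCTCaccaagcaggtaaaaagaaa
Kif16b, an early endosome motor, was called in no comparison as a gene. It had 32.9 and 37.5 CPM in myotubes, 30.8 and 32.2 in reserve cells, and 33.9 and 35.4 in myoblasts, with a log2 fold change of 0.02 (95% interval −0.18 to 0.23) in myotubes over myoblasts, which turned to −0.26 with library totals (edgeR adjusted p 0.0313). Its transcript with the 33-base exon, Kif16b-205, held 254 and 230 estimated counts in myotubes, 59 and 85 in reserve cells, and 0 and 0 in myoblasts. These were 55.0% and 35.7% of the gene in myotubes, 9.66% and 13.7% in reserve cells, and 0% in myoblasts. Set against a floor of 3 counts over both myoblast libraries the transcript was at least 200-fold higher in myotubes, and edgeR's adjusted p for its share was 0.014 in myotubes over myoblasts and 0.061 in reserve cells over myoblasts. The call in myotubes was lost without either myotube or either myoblast replicate (adjusted p from 0.076 to 0.22), and that in reserve cells was gained with no filter and without either reserve cell replicate.

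The 114-base exon of Kif2a was in transcripts that held 13.3% and 33.6% of the gene's counts in myotubes, 1.78% and 5.58% in reserve cells, and 1.14% and 0.446% in myoblasts. The main transcript with it, Kif2a-206, had 56 and 250 counts in myotubes, 7 and 45 in reserve cells, and 3 and 2 in myoblasts, with an edgeR adjusted p of 0.042 for its share in myotubes over myoblasts, a call lost with no filter (0.075) and without myotube replicate 2, reserve cell replicate 2 or either myoblast replicate (adjusted p from 0.055 to 0.49). The 72-base exon of Kif3a was in Kif3a-202, at 8.99% and 9.69% in myotubes, 3.57% and 3.24% in reserve cells, and 0.498% and 0.194% in myoblasts. The groups did not overlap, but its edgeR adjusted p of 0.078 missed the threshold. The third call was Kif20b-203, with 4 and 8 counts in myotubes, 457 and 300 in reserve cells, and 632 and 1195 in myoblasts, and an adjusted p of 0.044. It was lost in each of the 6 fits without 1 library (edgeR adjusted p from 0.069 to 0.35), with no filter (0.11) and with the replicate block (0.10).

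**Figure D5:**
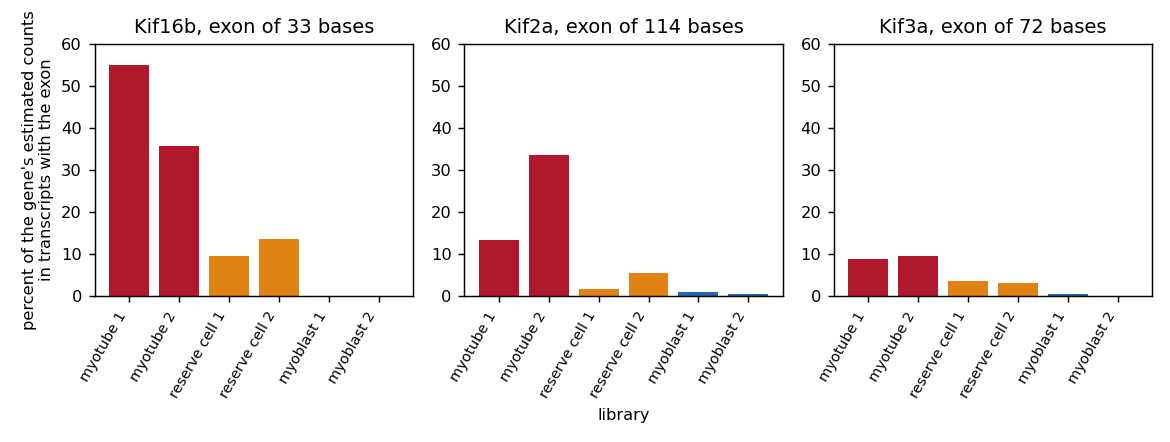
Percent of a gene's estimated counts in transcripts that hold the exon, for Kif16b, Kif2a and Kif3a in each library. Bars are single libraries. The share is highest in the myotube libraries for each exon (for Kif16b 55.0% and 35.7%), and 0% for Kif16b in both myoblast libraries.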

How the data were processed

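Polyadenylated RNA of 6 C2C12 libraries, 2 per group, was sequenced in paired-end mode. The authors mapped reads to mm10 with HISAT2, filtered them with SAMtools and assembled transcripts with StringTie, per the labels and the series text, and deposited an estimated count per transcript as whole numbers for each library. For program versions, annotation release and strandedness the sources used here name none. A deposited table of the whole series held 2.00 times these estimated counts in each group's total, with no scaling for depth, and entered no result. The scale of 1 estimated count is therefore not settled, and counting intervals and floors use the per-library files. Counts of 141374 of 142604 transcripts were summed to genes through GENCODE M21, and the 1230 others held 0.375% to 0.872% of a library.

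Gene counts of all 6 libraries entered 1 fit in edgeR 4.0.16 (R 4.3.3) with TMM factors and filterByExpr at 10 counts, and groups were tested by quasi-likelihood (glmQLFTest, Benjamini-Hochberg adjustment, threshold 0.05), and transcript shares with diffSpliceDGE. The test was also run on simulated data, and the outcome of that run is not given here. Intervals are 95%, and those on counts cover counting error only. A fold against 0 counts used a floor of 3 counts over the group. Alternatives were DESeq2 1.42.0, limma 3.58.1 on log2(CPM + 1), RLE factors, library totals, other filters (none, or 1 CPM in 2 libraries), a block for replicate number, fits restricted to the 4 libraries of a comparison, tests on transcripts, and fits without each library. Kif1b without Kif1b-203, Kifc1 and Kifc5b summed, the family without Kif1bp, and the transcript test with the block or with a library left out were chosen after seeing the data. Every Kif and Kifc gene is accounted for. Values per library are given for members that passed the test and averaged at least 5 TPM in a group and for members that moved against their role, and partner lists name at most 4 genes with the smallest adjusted p, besides Numa1, Kifap3, Pax7 and the MuvB and DREAM genes that rose, which were chosen after their values were seen. Members, roles and lists were chosen with earlier results of these data known.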

Additional observations from a re-analysis of the deposited data

Results flagged for a closer look

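Kif3c stood out because it was called in opposite directions in the Day 7 groups, higher in myotubes than in myoblasts (log2 fold change 0.25, SE 0.07, edgeR adjusted p 0.012) and lower in reserve cells than in myoblasts (−0.38, SE 0.07, edgeR adjusted p 0.0023). The test of the difference is the comparison of myotubes with reserve cells, where the log2 fold change was 0.63 (SE 0.07, edgeR adjusted p 9.3e-05), with 93.3 and 96.0 CPM in myotubes against 60.3 and 62.1 CPM in reserve cells. Its rise over myoblasts was lost with library totals and without myotube replicate 2 or myoblast replicate 2. By mean TPM Kif3c was highest in myoblasts (35.4), against 29.7 in myotubes and 25.5 in reserve cells. The comparison of myotubes with reserve cells was lost in 1 of 15 settings, that with transcripts in place of genes.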

How the results depend on the processing

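Of 117 member results, 66 kept their direction and side of the threshold under all 15 settings planned, and 25 changed under one of the 14 settings that tested genes. None of the 39 mitotic results was among those 25, and 10 of the 39 lost their call with transcripts in place of genes (Kif20a in 3 comparisons, Kif14 and Kif2c in 2 each). With transcripts in place of genes, each member read from its most counted transcript, 8 members were higher and 15 lower in myotubes over myoblasts, 4 were higher and 8 lower in reserve cells over myoblasts, and 3 were higher and 12 lower in myotubes over reserve cells. With library totals 8 results changed, and 2 turned direction in myotubes over myoblasts, Kif16b to −0.26 and Kif3c to −0.029. The share of called genes that were higher was then 36.6% in place of 49.96% in myotubes over myoblasts and 34.1% in place of 48.8% in myotubes over reserve cells. The transcript test called 1 member transcript in reserve cells over myoblasts with no filter.

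Leaving out 1 library gave 12 to 14 members higher and 20 to 21 lower in myotubes over myoblasts, 6 to 9 and 16 to 19 in reserve cells over myoblasts, and 8 to 10 and 16 to 20 in myotubes over reserve cells. It gave 0 to 4 transcripts called in myotubes over myoblasts and 0 to 1 in reserve cells over myoblasts. For the shares, a group without 1 library takes the value of its other library, so these ranges restate the single libraries and are no separate check. The mitotic shares were 4.45% to 4.95% for myotubes, 22.3% to 22.5% for reserve cells and 53.0% to 54.1% for myoblasts. The transport shares were 82.8% to 83.9%, 65.1% to 65.5% and 35.8% to 36.5%. With counts not divided by length the mitotic share averaged 2.85% (myotubes), 15.5% (reserve cells) and 43.3% (myoblasts), and the transport share 89.0%, 71.7% and 47.0%. The share of longer genes is larger on that scale by construction.

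Same-numbered libraries did not deviate together (correlations of −0.03, 0.01 and 0.05 over 15467 genes). No label pairs them, and with 2 libraries a group these correlations cannot settle whether same-numbered libraries shared a culture. With the replicate number as a block 14 members were higher and 21 lower in myotubes over myoblasts, 9 and 19 in reserve cells over myoblasts, and 10 and 20 in myotubes over reserve cells, and 0 member results changed. The block left 2 transcripts called in myotubes over myoblasts. With 2 libraries a group and a biological coefficient of variation of 12.9%, members with few counts (Kif5a, Kif9, Kif27, Kif28, Kifc2) had wide intervals, and for them a missed call does not show equal levels.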
